A study of Caenorhabditis elegans with 20 samples.

Results

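Glutathione S-transferases were taken as every probe set with a single gene symbol that starts with gst-, gsto- or gstk-, which gave 48 of the 29317 probe sets on the array. Each of the 48 stood for a different gene, 43 of them with gst symbols, 3 with gsto symbols (omega class) and 2 with gstk symbols (kappa class). RNA of pools of whole *C. elegans* was measured on Affymetrix arrays in 4 groups of 5 arrays. The study calls its 5 replicates independent and does not say whether equally numbered arrays of different groups belong together. The groups were *ahr-1(ju145)* with curcumin, *ahr-1(ju145)* with DMSO, wild-type with curcumin and wild-type with DMSO. Strain CZ2485 carries the loss-of-function allele *ju145* of the aryl hydrocarbon receptor gene *ahr-1*, and N2 was the wild-type strain. Worms of both were raised from eggs to day 3 on plates with 100 µM curcumin, a polyphenol of turmeric, or without it. By the methods of the study all plates held 0.1% DMSO, the solvent of curcumin, so the groups named with DMSO had the solvent alone. All values are log2 values from robust multi-array average (RMA), so that a difference of 1 is a doubling. As in the methods of the study, 1 array did not enter the fit, the fifth of *ahr-1(ju145)* with curcumin, and its values are given beside the others. Each genotype was represented by 1 strain.

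Glutathione S-transferases join the thiol tripeptide glutathione to electrophiles, which makes these more soluble and easier to export, and some members also reduce peroxides. In *C. elegans* the family is large, with many copies lying next to each other on the chromosomes, and the intestine is a main site of its expression. The transcription factor SKN-1, the worm counterpart of Nrf2, drives many of these genes under oxidative or electrophilic stress, and the promoter of *gst-4* joined to GFP is a widely used reporter of that response.

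The mean correlation of an array with the others of its group lay between 0.990 and 0.993. The probe set of *ahr-1* itself had 4.67, 4.29, 4.89, 4.44 and, in the array left out, 4.65 with curcumin in *ahr-1(ju145)*, against 4.86, 5.17, 4.88, 5.11 and 5.00 with curcumin in wild-type. With DMSO it had 4.94, 4.27, 4.90, 4.85 and 4.98 in *ahr-1(ju145)*, against 5.20, 4.92, 5.11, 4.96 and 5.45 in wild-type. The groups overlapped under both treatments, and the level of a transcript need not follow the allele it carries. The within-group standard deviation had a median of 0.223 over the members and 0.177 over all probe sets. The mean level was above the median of all probe set means for 27 members and at or below it for 21. Among the latter were *gst-5* (3.99), *gst-10* (3.43) and *gst-15* (3.90).

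Curcumin raised 5 of the 48 members when its effect was averaged over both strains, and lowered none past the threshold. The 5 were *gst-4*, *gst-30*, *gst-6*, *gst-5* and *gst-7*, with differences from 0.36 to 1.27, or 1.28-fold to 2.41-fold. That is 10.4% of the members, where 0.73% of all probe sets passed in either direction and 0.576% passed as higher (limma, adjusted p under 0.1 by Benjamini-Hochberg over all probe sets, two-sided). The count was 3, *gst-4*, *gst-30* and *gst-5*, without replicate 3 of either curcumin group. In neither strain alone did a member pass. In *ahr-1(ju145)*, 0.0648% of all probe sets passed, and the lowest adjusted p among the members was 0.128. In wild-type, 0.143% of all probe sets passed, and the lowest adjusted p among the members was 0.239. With a block for the replicate number, members passed in each strain and more passed in the averaged effect. Calls over all probe sets rose as well, and the counts are given in the closing sections. The averaged effect was one of 6 comparisons. Since whole worms were measured, fewer cells of a type and less RNA per cell cannot be told apart in any of them.

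All 5 calls ended when the mean level of 22 embryo marker genes entered the fit as a covariate. The difference then was 1.13 for *gst-4* (adjusted p = 0.12), 0.83 for *gst-30* (adjusted p = 0.14), 0.62 for *gst-5* (adjusted p = 0.221), 0.38 for *gst-6* (adjusted p = 0.681) and 0.36 for *gst-7* (adjusted p = 0.372, all limma). Only for *gst-6* did the difference itself move by much, to 0.38 with the covariate against 0.78 without it. The same covariate left 51 calls over all probe sets, against 214 without it.

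The embryo markers had a median averaged difference of -0.14, and none passed the threshold. Their mean level ranged from 5.07 to 5.25 (median 5.12) with curcumin in *ahr-1(ju145)*, against 5.14 to 5.46 (median 5.28) with DMSO. In wild-type it ranged from 5.05 to 5.41 (median 5.29) with curcumin, against 5.29 to 5.57 (median 5.39) with DMSO. Of the 22 markers, 2 had an averaged difference above 0 and 6 were lower at an unadjusted p under 0.05. Of 8 intestine markers, 1 passed as higher, *pept-1*, the peptide transporter of the gut (0.56, SE 0.11, adjusted p = 0.0254, limma), and before adjustment 4 were higher and 1 lower at p under 0.05. No oocyte, yolk, sperm, muscle or neuron marker passed in the averaged effect, and at an unadjusted p under 0.05 3 of 7 neuron markers and 1 of 21 sperm genes were higher. The embryo marker mean had a lower median with curcumin in both strains, so the covariate fit cannot fully separate it from the treatment. The part of these cell types in the result was not tested.

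*gst-4*, the gene of the reporter, had the largest averaged difference of the 48. In *ahr-1(ju145)* its values with curcumin were 8.51, 8.49, 8.59, 7.40 and, in the array left out, 7.34, against 6.46, 7.11, 7.28, 7.01 and 6.35 with DMSO. In wild-type they were 8.18, 8.15, 8.44, 7.23 and 7.23 with curcumin, against 6.20, 6.77, 6.99, 6.93 and 6.67 with DMSO. In both strains each curcumin array lay above each DMSO array, and in both strains replicates 4 and 5 with curcumin were about 1 unit below replicates 1 to 3. The averaged difference was 1.27 (SE 0.20, 95% interval 0.85 to 1.69), which is 2.41-fold, with an adjusted p of 0.00412 in limma. It was 1.40 in *ahr-1(ju145)* (SE 0.29, adjusted p = 0.128) and 1.14 in wild-type (SE 0.27, adjusted p = 0.239, both limma). Without replicate 4 of *ahr-1(ju145)* with curcumin, the difference in *ahr-1(ju145)* was 1.69 and passed with an adjusted p of 0.0333. It also passed there, with the difference still at 1.40, when replicate 3 or replicate 5 of wild-type with curcumin was left out of the shared fit (adjusted p = 0.098 and 0.0911, limma). Without replicate 5 of wild-type with curcumin, the difference in wild-type was 1.29 with an adjusted p of 0.0797.

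*gst-30*, another cytosolic member, stood next in size. With curcumin in *ahr-1(ju145)* it had 5.54, 5.97, 6.11, 5.15 and, in the array left out, 4.85, against 4.97, 4.67, 4.53, 4.89 and 4.48 with DMSO. With curcumin in wild-type it had 5.79, 5.48, 5.73, 4.99 and 4.71, against 4.86, 4.35, 4.83, 4.69 and 4.37 with DMSO. The groups did not overlap among the arrays of the fit in *ahr-1(ju145)*, but the array left out fell within the range of DMSO, and in wild-type replicate 5 with curcumin did so too. The averaged difference was 0.85 (SE 0.15, 1.81-fold, adjusted p = 0.0108, limma). In *ahr-1(ju145)* it was 0.99 (adjusted p = 0.177), which became 1.17 with an adjusted p of 0.076 without replicate 4 of *ahr-1(ju145)* with curcumin and had an adjusted p of 0.0911 without replicate 5 of wild-type with curcumin. In wild-type it was 0.72 (adjusted p = 0.43), which became 0.88 with an adjusted p of 0.0948 without replicate 5 of wild-type with curcumin (all limma).

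*gst-5* rose by a smaller step and was dim, with a mean level of 3.99 where the median of all values was 4.255. Its values in *ahr-1(ju145)* were 4.41, 4.59, 4.64, 3.92 and, in the array left out, 3.94 with curcumin, against 3.86, 3.91, 4.05, 3.55 and 3.34 with DMSO. Its values in wild-type were 4.49, 4.26, 4.60, 3.90 and 3.99 with curcumin, against 3.37, 3.54, 3.85, 3.89 and 3.61 with DMSO. In wild-type the lowest curcumin array lay just above the highest DMSO array, and in *ahr-1(ju145)* replicate 4 with curcumin lay inside the range of DMSO. The averaged difference was 0.62 (SE 0.12, 1.54-fold, adjusted p = 0.0254, limma), with 0.65 in *ahr-1(ju145)* and 0.59 in wild-type.

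*gst-6* and *gst-7* are neighbours on chromosome II. For *gst-6* the values in *ahr-1(ju145)* were 7.05, 6.42, 7.37, 7.39 and, in the array left out, 7.18 with curcumin, against 6.06, 5.99, 6.43, 7.02 and 6.31 with DMSO. In wild-type they were 7.20, 6.60, 7.57, 7.44 and 6.94 with curcumin, against 5.86, 6.35, 6.35, 6.78 and 6.10 with DMSO. The groups overlapped in both strains, through replicate 2 with curcumin, the lowest of its group in each strain, and replicate 4 with DMSO, the highest of its group in each strain. The averaged difference was 0.78 (SE 0.17, 1.72-fold, adjusted p = 0.0472, limma). The adjusted p was 0.139 without replicate 3 of *ahr-1(ju145)* with curcumin, 0.105 without replicate 4 of that group and 0.1, not under the threshold, without replicate 3 of wild-type with curcumin.

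*gst-7* changed least of the 5. In *ahr-1(ju145)* it had 6.0, 6.06, 6.25, 5.89 and, in the array left out, 5.74 with curcumin, against 5.71, 5.91, 5.64, 5.66 and 5.20 with DMSO. In wild-type it had 6.04, 5.77, 6.07, 6.03 and 5.77 with curcumin, against 5.80, 5.64, 5.42, 5.70 and 5.63 with DMSO. The groups overlapped by a single DMSO array in each strain, replicate 2 in *ahr-1(ju145)* and replicate 1 in wild-type. The averaged difference was 0.36 (SE 0.08, 1.28-fold, adjusted p = 0.0694, limma). The call was lost when the array left out was put back (0.33, adjusted p = 0.106), and it was also lost without any one of 9 arrays, with adjusted p between 0.104 and 0.186. These were replicates 1, 2 and 3 of *ahr-1(ju145)* with curcumin, replicate 3 of *ahr-1(ju145)* with DMSO, replicates 1, 3 and 4 of wild-type with curcumin and replicates 3 and 5 of wild-type with DMSO.

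**Figure D1:**
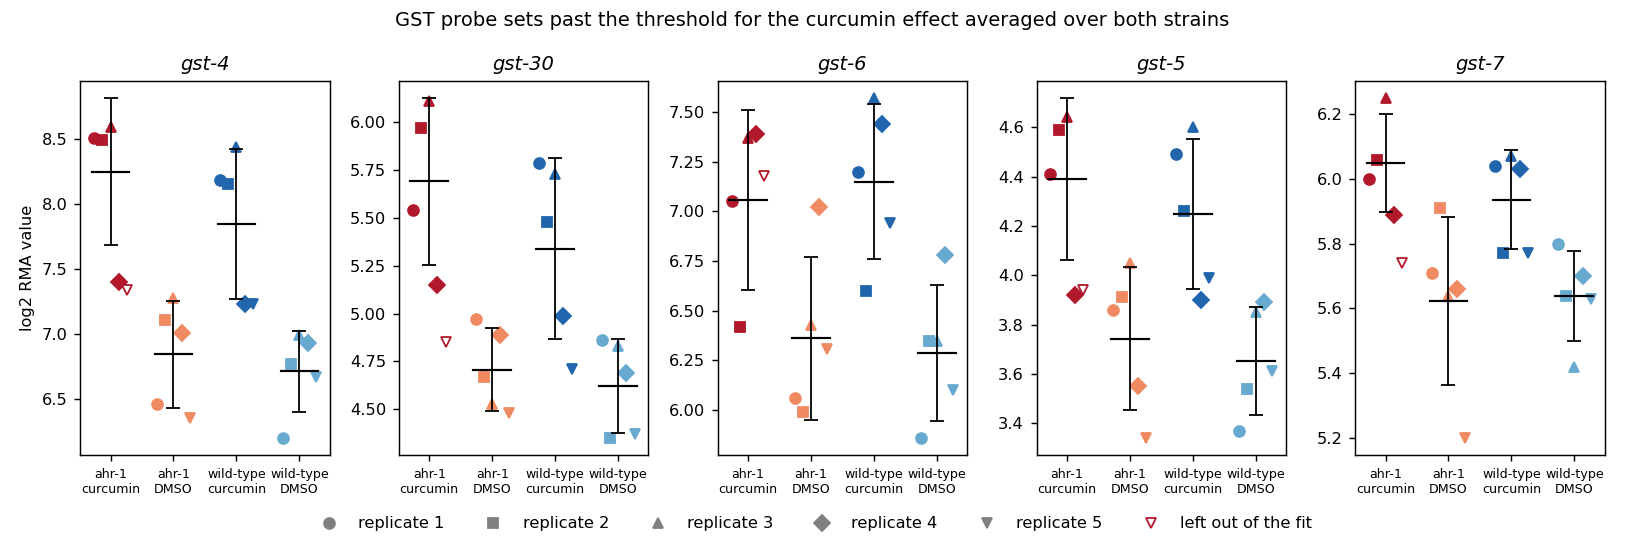
Log2 RMA value (vertical axis, own scale per panel) of the 5 members that passed in the averaged curcumin effect, by group; marker shape gives the replicate number, horizontal bars the group mean and error bars 1 SD over the arrays of the fit, and the open triangle the array left out. For *gst-4* each curcumin array lies above each DMSO array of its strain, and replicates 4 and 5 with curcumin lie lower than replicates 1 to 3.

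The groups were free of overlap for few members. Every curcumin array of the fit lay above every DMSO array in *ahr-1(ju145)* for 3 members, *gst-30*, *gst-4* and *gst-40*, against 1.21% of all probe sets. In wild-type this held for 2 members, *gst-4* and *gst-5*, against 0.634% of all probe sets. In both strains it held for 1 member, *gst-4*, against 0.157% of all probe sets. *gst-40*, named here after its values were seen, had the smallest within-group spread of the members and a low mean level of 3.16. Its difference in *ahr-1(ju145)* was 0.10 (SE 0.07).

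The members lay mostly above 0 under curcumin, most of them without passing the threshold. The counts that follow include the 5 that passed. Of the 48, 37 had an averaged difference above 0, which is 77.1% against 48.1% of all probe sets, and the median was 0.13 against 0 over all probe sets. Before adjustment, 19 members were higher and 0 lower at p under 0.05, against 4.87% and 5.34% of all probe sets. The range ran from -0.32 for *gst-21* to 1.27 for *gst-4*. The value of *gst-21* did not pass and was -0.10 without replicate 3 of wild-type with DMSO, and -0.41 with the embryo marker mean as a covariate. By the same measure 10 members were higher and 1 lower in *ahr-1(ju145)* alone (3.58% and 3.86% of all probe sets). In wild-type, 10 were higher and 0 lower (3.19% and 3.3% of all probe sets).

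Of the members that did not pass, *gst-38* and *gst-13* had the largest averaged differences, larger than that of *gst-7*, which passed. *gst-38* had 6.0, 6.42, 6.26, 5.56 and, in the array left out, 5.74 with curcumin in *ahr-1(ju145)*, against 5.60, 6.13, 6.06, 5.21 and 5.01 with DMSO. In wild-type it had 6.04, 6.52, 5.98, 5.64 and 5.96 with curcumin, against 5.11, 5.69, 5.25, 5.29 and 5.20 with DMSO. Replicate 2 was the highest of each of the 4 groups, and the groups overlapped in both strains. The averaged difference was 0.59 (SE 0.16, adjusted p = 0.13, limma). *gst-13* averaged 7.22 ± 0.36 with curcumin (n = 4) and 6.79 ± 0.44 with DMSO (n = 5) in *ahr-1(ju145)*, and 6.95 ± 0.37 with curcumin and 6.32 ± 0.46 with DMSO in wild-type (SD, n = 5 each). Its averaged difference was 0.53 (SE 0.17, adjusted p = 0.224, limma), and the groups overlapped in both strains.

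**Figure D2:**
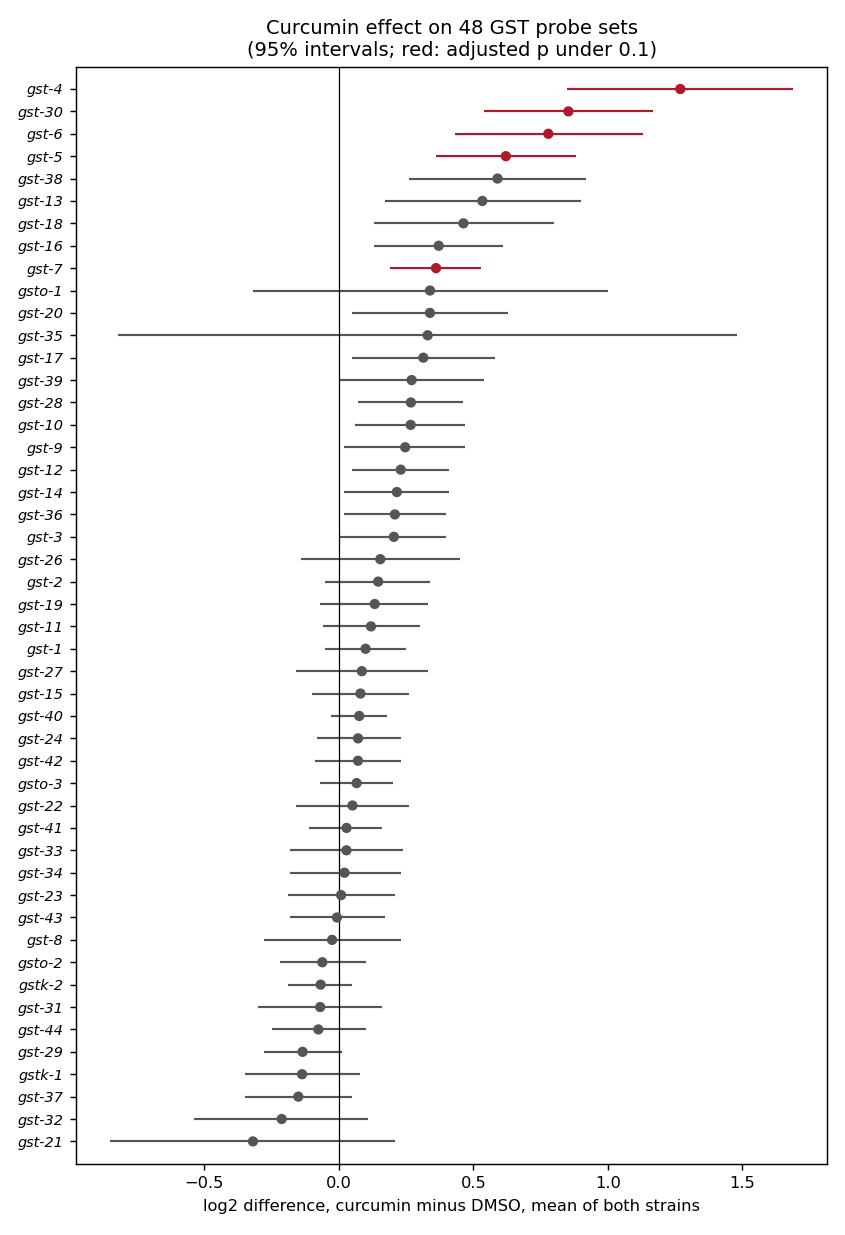
Averaged log2 difference of curcumin minus DMSO (horizontal axis) for the 48 members, sorted, with 95% intervals; red marks an adjusted p under 0.1. The differences run from -0.32 to 1.27 and 37 of 48 lie above 0, and *gst-35* has the widest interval.

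Many members lie side by side in the genome, and the runs of neighbours differed. In the order of genes in RefSeq, 24 members fell into 4 runs with at most 1 other protein-coding gene between neighbours. The run of *gst-3*, *gst-2* and *gst-4* on chromosome IV held 1 call, *gst-4*, with averaged curcumin differences of 0.20, 0.15 and 1.27. The run of *gst-6*, *gst-7* and *gst-8* on chromosome II held 2 calls, and *gst-8* had -0.03 (SE 0.12). Of the 9 genes from *gst-20* to *gst-18* on chromosome II, 9 had an averaged difference above 0, between 0.07 and 0.46, and 6 reached an unadjusted p under 0.05 but 0 passed. Of the 9 from *gst-26* to *gst-35*, also on chromosome II, 6 were above 0, between -0.21 and 0.33 over the run, 2 reached an unadjusted p under 0.05 and 0 passed. No member shared all of its values with another probe set, but close copies can share probes or hybridise to each other's probes, so that differences within a run are uncertain.

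The curcumin effect did not differ between the strains past the threshold for any member, and no probe set on the array passed that comparison (0%). The lowest adjusted p was 1 over the members and 0.85 over all probe sets. At an unadjusted p under 0.05, 1 member (2.08%) had a larger effect in *ahr-1(ju145)* and 0 a smaller one. The shares of all probe sets were near this, 1.59% and 1.77%. The difference between the strains in the effect on *gst-4* was 0.27, with a 95% interval from -0.57 to 1.10, which leaves room for an effect of over 1 unit more in *ahr-1(ju145)*. The interval of this difference ran from -0.37 to 0.90 for *gst-30*, -0.87 to 0.54 for *gst-6*, -0.46 to 0.57 for *gst-5* and -0.22 to 0.47 for *gst-7*. *gst-11* was the one member at an unadjusted p under 0.05 (0.35, SE 0.17, adjusted p = 1, limma).

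The effects in the strains, which share no arrays, were set side by side. Over the 48 members the curcumin differences in *ahr-1(ju145)* and in wild-type had a Pearson correlation of 0.822 and a Spearman correlation of 0.732. They pointed the same way for 39 members (81.2%), 30 of them higher in both, where 58.8% of all 29317 probe sets pointed the same way with a Pearson correlation of 0.436. Without the 5 that passed, the Pearson correlation over the other 43 was 0.645, and 34 of them (79.1%) pointed the same way. The points share the normalization, and genes are not independent replicates. Equally numbered arrays of the strains also deviated together, with a mean correlation of 0.264 between the DMSO groups and 0.162 between the curcumin groups. These are therefore descriptions. At an unadjusted p under 0.05, 5 members were higher in both strains, and 1.02% of all probe sets met this condition. These members were the 5 that passed in the averaged effect. The averaged effect is the mean of the effects in the strains, from the same arrays and the same fit. The match between these lists is therefore largely built in and is not separate evidence that the strains agree.

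**Figure D3:**
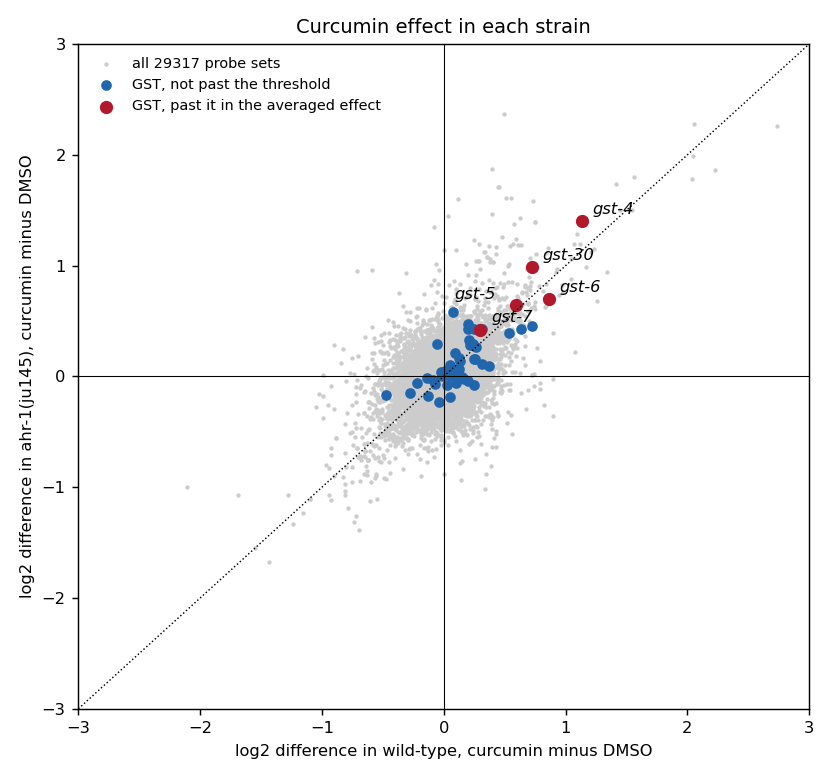
Log2 difference of curcumin minus DMSO in *ahr-1(ju145)* (vertical axis) against that in wild-type (horizontal axis) for all 29317 probe sets (grey), the 43 other members (blue) and the 5 members that passed in the averaged effect (red); the dotted line marks equal differences. The 5 lie near that line, from *gst-7* with 0.42 in *ahr-1(ju145)* and 0.30 in wild-type to *gst-4* with 1.40 in *ahr-1(ju145)* and 1.14 in wild-type.

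Loss of *ahr-1* gave no call among the members under either treatment, though with the replicate number as a block *gst-13* passed with DMSO. With curcumin, 0 of 48 passed in *ahr-1(ju145)* against wild-type, where 0.553% of all probe sets passed, and the lowest adjusted p of a member was 0.197. At an unadjusted p under 0.05, 2 members (4.17%) were higher, *gst-10* and *gst-11*, and 0 lower, against 4.29% and 4.54% of all probe sets. With DMSO, 0 of 48 passed, where 1.81% of all probe sets passed, and the lowest adjusted p of a member was 0.244. Here too 2 members (4.17%) were higher at an unadjusted p under 0.05, *gst-10* and *gst-15*, and 0 lower, against 5.51% and 5.64%. Under neither treatment was the share of higher members above that of all probe sets, so these counts do not set the members apart. The median difference of the members was 0.03 with curcumin and 0.09 with DMSO, against 0.01 and 0.02 over all probe sets in the same comparisons. With curcumin 31 of the 48 lay above 0, which is 64.6% against 53.6% of all probe sets. With DMSO 36 did, which is 75% against 55.3%. *gst-4* differed by 0.40 with curcumin (SE 0.29, adjusted p = 0.763) and by 0.13 with DMSO (SE 0.27, 95% interval -0.44 to 0.70, adjusted p = 0.922, both limma).

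*gst-10*, whose enzyme conjugates the lipid peroxidation product 4-hydroxynonenal, had a similar difference under both treatments. It had 3.51, 4.15, 3.83, 3.48 and, in the array left out, 3.26 in *ahr-1(ju145)* with curcumin, against 3.50, 3.60, 3.35, 3.4 and 3.20 in wild-type. With DMSO it had 3.52, 3.57, 3.66, 3.33 and 3.30 in *ahr-1(ju145)*, against 3.05, 3.26, 3.26, 3.41 and 2.74 in wild-type. The groups overlapped under both treatments, and replicate 5 was the lowest of each of the 4 groups. The difference was 0.34 with curcumin (adjusted p = 0.475) and 0.33 with DMSO (SE 0.13, adjusted p = 0.339, both limma).

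*gst-11* had its larger strain difference with curcumin. In *ahr-1(ju145)* it had 4.77, 4.49, 4.38, 4.64 and, in the array left out, 4.47 with curcumin, all above the 4.08, 4.24, 4.02, 4.31 and 4.14 of wild-type with curcumin. With DMSO it had 4.35, 4.43, 4.12, 4.35 and 4.13 in *ahr-1(ju145)*, against 3.75, 4.26, 4.24, 4.49 and 4.32 in wild-type, where the groups overlapped. The difference was 0.41 with curcumin (SE 0.12, adjusted p = 0.197) and 0.06 with DMSO (adjusted p = 0.91, both limma). Without replicate 1 of wild-type with DMSO the difference with curcumin was again 0.41 and passed with an adjusted p of 0.0818 (limma).

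*gst-13* and *gst-15* had the largest differences with DMSO. *gst-13* had 6.71, 7.37, 7.07, 6.55 and 6.25 in *ahr-1(ju145)*, against 6.0, 6.81, 6.57, 6.49 and 5.70 in wild-type. The groups overlapped, but replicate by replicate the *ahr-1(ju145)* array was the higher in 5 of 5 numbers. The difference was 0.48 (SE 0.24, adjusted p = 0.474, limma). Equal numbers deviated together between these groups, and with the replicate number as a block *gst-13* was the 1 member that passed (adjusted p = 0.065, limma). The block took the calls over all probe sets to 931 (3.18%), against 530 without it. *gst-15* had 4.40, 3.83, 3.93, 3.95 and 4.03 in *ahr-1(ju145)*, against 3.70, 3.75, 3.84, 3.56 and 3.65 in wild-type, with a single value of overlap, and a difference of 0.33 (SE 0.12, adjusted p = 0.244, limma).

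**Figure D4:**
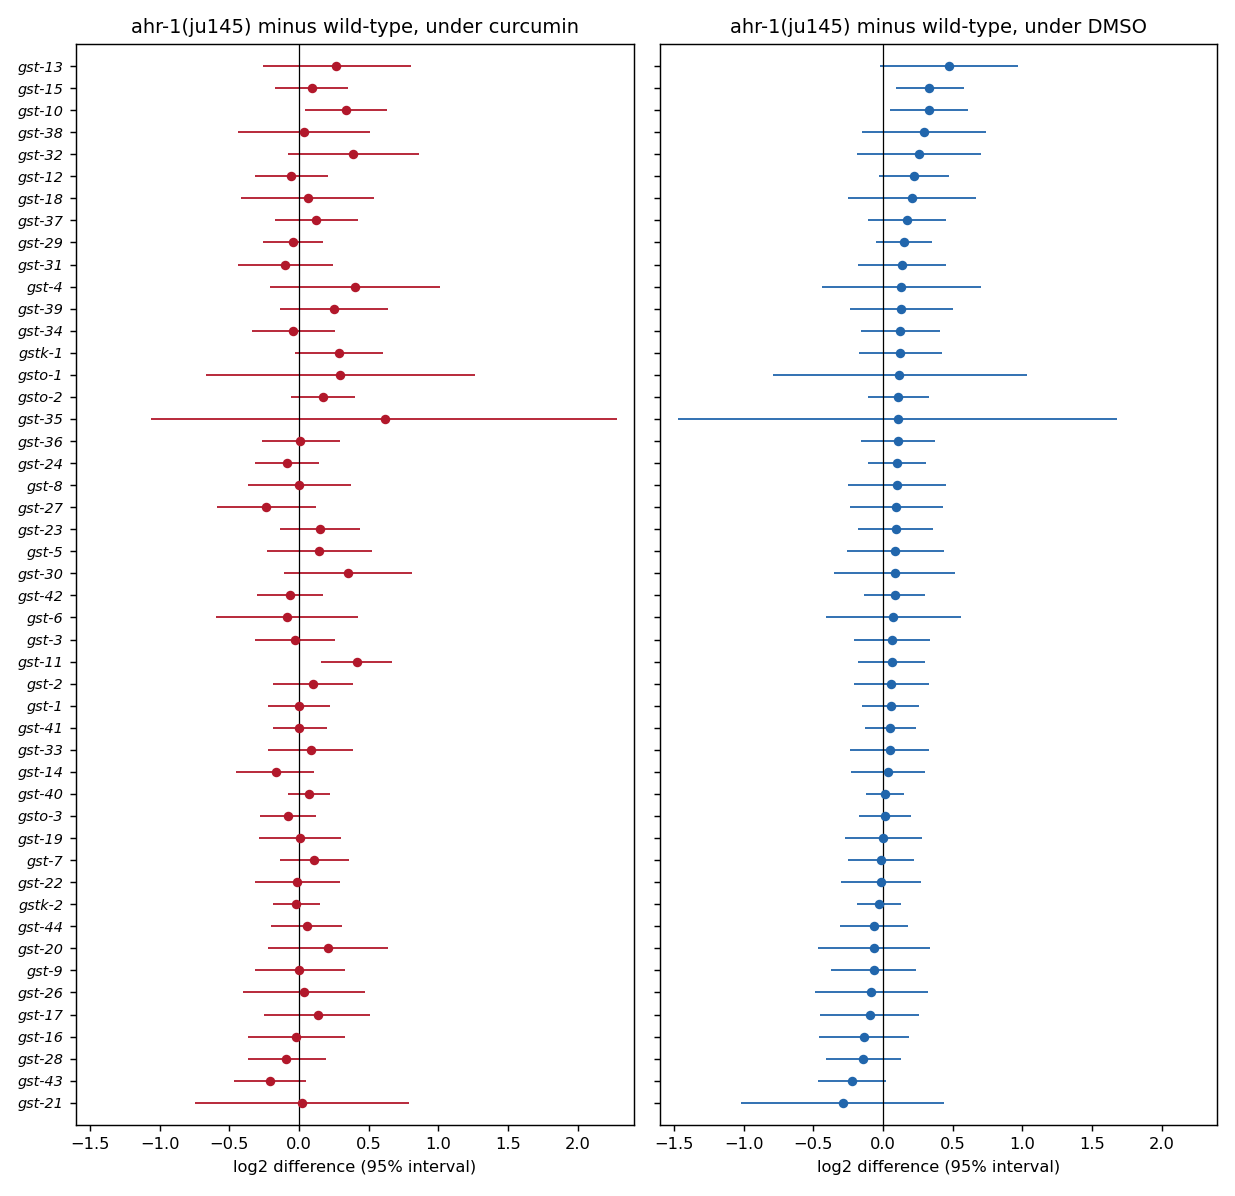
Log2 difference of *ahr-1(ju145)* minus wild-type (horizontal axis) with 95% intervals for the 48 members, with curcumin on the left and with DMSO on the right, sorted by the difference with DMSO. No member passed an adjusted p under 0.1 in either panel; the intervals of *gst-10* lie above 0 in both, that of *gst-11* with curcumin alone and that of *gst-15* with DMSO alone.

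The members of other classes passed in no comparison. *gst-42*, which encodes the maleylacetoacetate isomerase of tyrosine breakdown, had an averaged curcumin difference of 0.07, and the related *gst-43* had -0.01. *gst-43* was lower in *ahr-1(ju145)* by a similar amount under both treatments, -0.21 with curcumin (SE 0.12, adjusted p = 0.665) and -0.22 with DMSO (SE 0.12, adjusted p = 0.495, both limma), and passed in neither. *gst-1*, of the pi class, had an averaged curcumin difference of 0.10. The kappa members, whose mammalian counterpart lies in mitochondria and peroxisomes, had -0.14 for *gstk-1* and -0.07 for *gstk-2*. Of the omega members, *gsto-1*, which has been tied to protection from oxidative stress in the intestine, had 0.34 with an SE of 0.32, *gsto-2* had -0.06 and *gsto-3* had 0.07. *gst-27* had the largest negative difference between the strains in the curcumin effect, -0.33 (SE 0.23, adjusted p = 1, limma).

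For some members the arrays of 1 replicate number stood together across all 4 groups. *gst-35*, the last gene of its run on chromosome II, had 6.06 in *ahr-1(ju145)* with curcumin, 5.37 in *ahr-1(ju145)* with DMSO, 5.48 in wild-type with curcumin and 5.68 in wild-type with DMSO in replicate 3. In the other 16 arrays it ranged from 2.47 to 4.04. The lowest replicate 3 array was thus 1.33 above the highest array of any other number, and no other of the 29317 probe sets had a gap as wide for that number. Its neighbour *gst-34* lay between 4.69 and 5.72 on all 20 arrays with no such step. Its within-group spread was the widest of the 48, and its differences between the strains with curcumin (0.61, SE 0.80) and between their curcumin effects (0.51, SE 1.09), the largest of the members in those comparisons, were smaller than their standard errors.

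*gsto-1* followed the numbers in another order. Replicate 4 was its highest array in each of the 4 groups and replicate 2 its lowest. The values were 8.55, 7.22, 8.62, 9.13 and, in the array left out, 8.34 with curcumin in *ahr-1(ju145)*, against 7.58, 7.06, 7.98, 9.01 and 8.14 with DMSO. In wild-type they were 8.10, 6.85, 8.62, 8.92 and 7.95 with curcumin, against 7.21, 7.14, 7.98, 8.84 and 8.01 with DMSO. The differences between equally numbered arrays were 0.97, 0.16, 0.65, 0.12 and 0.20 in *ahr-1(ju145)* and 0.90, -0.30, 0.63, 0.08 and -0.07 in wild-type, so that numbers 1 and 3 were high in both strains.

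The same view of *gst-4* and *gst-30* showed smaller steps for numbers 4 and 5 in both strains. Curcumin minus DMSO within a number was 2.05, 1.38, 1.31, 0.39 and, with the array left out, 0.99 for *gst-4* in *ahr-1(ju145)*, and 1.98, 1.38, 1.45, 0.31 and 0.56 in wild-type. For *gst-30* it was 0.57, 1.30, 1.58, 0.26 and 0.37 in *ahr-1(ju145)*, and 0.93, 1.12, 0.91, 0.30 and 0.34 in wild-type. All of these differences were above 0. The labels do not say that equal numbers share a culture or a day, the pattern was noticed after the values were seen, and it was not tested.

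**Figure D5:**
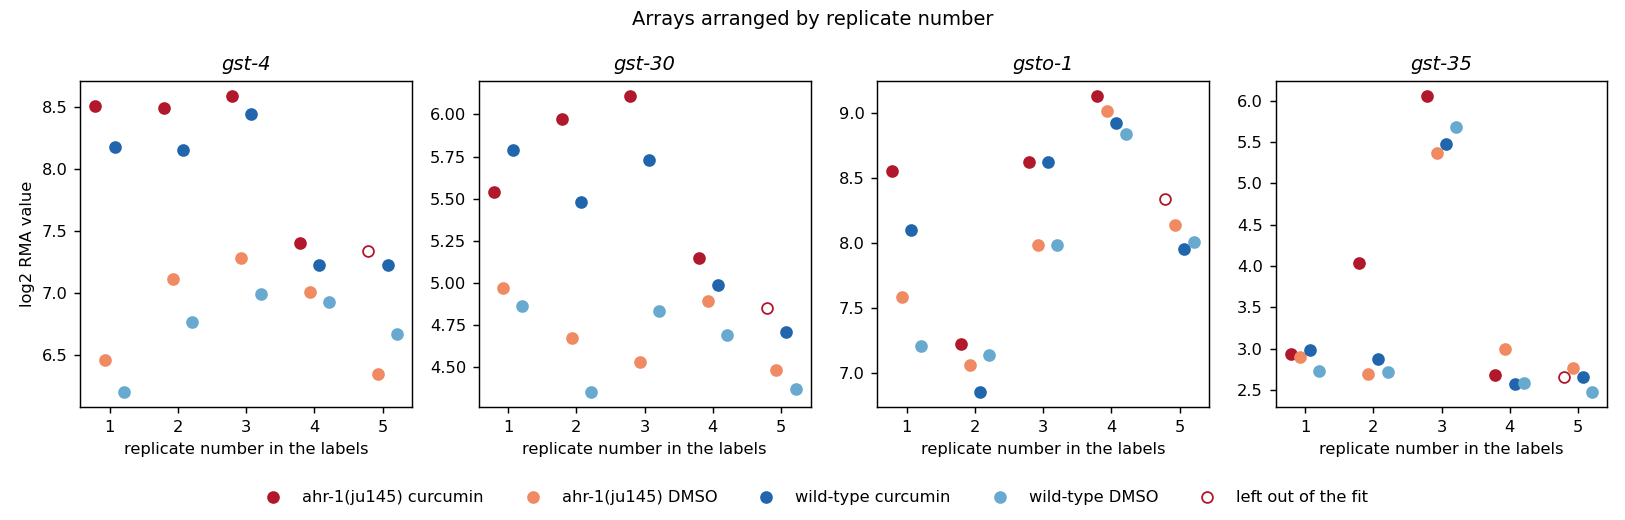
Log2 RMA value (vertical axis, own scale per panel) of 4 members by the replicate number in the labels (horizontal axis); colours give the group, and the open circle is the array left out. *gst-35* is high in replicate 3 of each group, *gsto-1* is highest in replicate 4 and lowest in replicate 2 of each group, and the gap between curcumin and DMSO arrays of *gst-4* and *gst-30* is narrower in replicates 4 and 5.

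Genes that make, spend or export glutathione were compared as a fixed list of 26, of which 25 were measured. In the averaged curcumin effect, where 0.73% of all probe sets passed, 2 were called, both higher: *mrp-3*, a transporter of the family that exports glutathione conjugates (0.56, SE 0.11, adjusted p = 0.0246), and *gpx-7*, of the glutathione peroxidase family (0.27, SE 0.06, adjusted p = 0.0393, both limma). Before adjustment, 6 of the 25 were higher at p under 0.05 and none lower, against 4.87% and 5.34% of all probe sets, and the median difference was 0.04. *mrp-3* had 7.90, 7.67, 7.85, 7.33 and, in the array left out, 7.37 with curcumin in *ahr-1(ju145)*, against 6.96, 7.25, 7.33, 7.21 and 7.05 with DMSO. In wild-type it had 7.77, 7.50, 7.86, 7.42 and 7.03 with curcumin, against 6.78, 7.16, 7.10, 7.01 and 6.60 with DMSO. The groups touched in *ahr-1(ju145)* and overlapped in wild-type through replicate 5 with curcumin. *gpx-7* was dim, with 3.09 to 3.69 on all arrays, where the median of all values was 4.255. Its difference was 0.19 in *ahr-1(ju145)* (adjusted p = 0.645), where the groups overlapped. It was 0.36 in wild-type (adjusted p = 0.14, both limma), where they did not. *gcs-1*, the rate-limiting enzyme of glutathione synthesis and a SKN-1 target, had 0.16 (SE 0.07, adjusted p = 0.427, limma). *mrp-8*, of the same transporter family as *mrp-3*, was the one gene of the list that differed between the strains, with curcumin (0.33, adjusted p = 0.0706, limma).

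The regulators were measured by their transcripts alone. Of 10 measured genes around SKN-1, 0 passed in the averaged curcumin effect and 0 reached an unadjusted p under 0.05. *skn-1* itself differed by 0.00 (SE 0.04) and *wdr-23*, which targets SKN-1 for breakdown, by 0.03 (SE 0.04). *aha-1*, the partner of AHR-1, was lower in *ahr-1(ju145)* with DMSO by -0.31 (adjusted p = 0.0796), and *ahr-1* had -0.34 there (adjusted p = 0.35, both limma). With curcumin the strains differed by -0.09 for *aha-1* (adjusted p = 0.84) and by -0.43 for *ahr-1* (adjusted p = 0.307, both limma). Among other enzymes that act on foreign compounds, 1 of 74 cytochrome P450 probe sets was higher and 6 were lower in the averaged curcumin effect, and 4 of 67 UDP-glucuronosyltransferase probe sets were higher and 1 lower, where 5 of 48 glutathione S-transferases were higher and 0 lower. Of all probe sets, 0.73% passed in either direction, and the difference between the 3 families was not tested.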

How the data were processed

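The values are the authors' log2 RMA values of 20 arrays, as deposited, which by the methods of the study were made in R with the oligo package. RMA corrects the background, applies quantile normalization and summarises the probes, so levels of different probe sets do not measure relative amounts of transcript. A probe set called dim has a low value on the array and no more is meant. Array data have no read depth, and the number of arrays limits the precision. The authors' tables of called probe sets (log fold changes, statistics and p-values) were not used. Gene names come from the platform annotation, with the genome build not stated. All 48 symbols were found in the RefSeq table of the organism, which gave the gene order alone. No sequences were used here.

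All 29317 probe sets were fitted with limma 3.58.1 in R 4.3.3, with a mean per group, 19 arrays, no block and no filter (15 residual and 3.3763 prior degrees of freedom). The threshold was an adjusted p under 0.1 (Benjamini-Hochberg over all probe sets within a comparison, two-sided), and the fit was tested on simulated data. The members, lists and comparisons were chosen with earlier results of these data known. Genes named are *gst-4*, the members that passed, the 3 largest differences per comparison and the smaller classes, and of the lists those that passed with *ahr-1*, *aha-1*, *skn-1*, *wdr-23* and *gcs-1*. The study does not state that replicates were paired. Deviations of equally numbered arrays from their group means correlated by 0.114 to 0.431 between the DMSO groups (mean 0.264), all above 0.1. In the other pairs of groups some fell below 0.1, down to 0.0575, but all were positive. The mean was 0.247 between the wild-type groups, 0.162 between the curcumin groups and 0.127 between the *ahr-1(ju145)* groups. For unequally numbered arrays the means of the pairs of groups were lower, from -0.0657 to -0.0313. Values with the block are given above for the DMSO comparison alone, and counts with it in the other comparisons are given below.

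The fit was repeated with all 20 arrays, with the arrays of the 2 groups compared, with the block, with array weights, after median centring or another quantile normalization, with the trend and robust options of limma, without dim probe sets, with single-symbol probe sets, at a threshold of 0.05, with the embryo marker covariate and without each array in turn.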

Additional observations from a re-analysis of the deposited data

Results flagged for a closer look

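Over the 20 named genes and 4 groups, 7 of 80 groups of values held an array far from the rest. The rule set its gap to the next array against the range of the group. Independent normal values would give about 1 in 20. The genes were named partly by their differences and the groups are not independent, so that rate is no fair reference. *gst-35* accounts for 3 of the 7, each in replicate 3, with 5.37 in *ahr-1(ju145)* with DMSO (next highest 2.99), 5.48 in wild-type with curcumin (next highest 2.98) and 5.68 in wild-type with DMSO (next highest 2.73). *gst-4* had 7.40 in replicate 4 of curcumin-treated *ahr-1(ju145)*, where the next lowest of the 4 arrays had 8.49, although the array left out had 7.34. *gst-27* had 4.49 in replicate 5 of DMSO-treated *ahr-1(ju145)* (next lowest 5.15), and *gst-42* had 7.96 in replicate 5 of DMSO-treated wild-type (next lowest 8.35). *gstk-1* had 6.0 in replicate 2 of curcumin-treated *ahr-1(ju145)* (next highest 5.58).

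The array left out of the fit, replicate 5 of curcumin-treated *ahr-1(ju145)*, lay above all DMSO arrays of its strain for 2 of the 5 members that passed, with 7.18 for *gst-6* against a highest DMSO value of 7.02, and with 7.34 for *gst-4* against 7.28.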

How the results depend on the processing

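The averaged curcumin effect had 5 members past the threshold, 0 with the embryo marker covariate, 9 with the replicate block, and 3 to 7 with each array left out in turn. It had 3 without replicate 3 of curcumin-treated *ahr-1(ju145)* or of curcumin-treated wild-type (*gst-4*, *gst-30* and *gst-5* in both cases) and 7 without replicate 5 of curcumin-treated wild-type, which also took the calls over all probe sets to 719, against 214. The 9 with the block were the 5 and *gst-13*, *gst-16*, *gst-36* and *gst-38*, and the calls over all probe sets were then 792. In *ahr-1(ju145)* alone 0 members passed for curcumin, 1 with the block (*gst-4*; 67 of all probe sets, against 19), 1 with the filter on dim probe sets (*gst-4*), which tests fewer probe sets, and 0 to 2 with each array left out. In wild-type alone 0 passed, 5 with the block (*gst-4*, *gst-5*, *gst-6*, *gst-13* and *gst-38*; 219 of all probe sets, against 42) and 0 to 2 with each array left out. For *ahr-1(ju145)* against wild-type, 1 passed with DMSO under the block (*gst-13*; 931 of all probe sets, against 530), and 0 to 1 with curcumin when arrays were left out. The cause of these changes was not tested. The block changed no member count in the other 2 comparisons. Over the alternatives the adjusted p of the averaged effect ranged from 0.001 to 0.12 for *gst-4*, 0.00295 to 0.14 for *gst-30*, 0.00596 to 0.221 for *gst-5* (which the dim filter removes), 0.00161 to 0.681 for *gst-6* and 0.0336 to 0.372 for *gst-7*, and no difference of the 5 changed sign. Single differences were followed for the 5 members that passed and for *gst-10*, *gst-11* and *gst-15*, in chosen comparisons. Under the alternatives 652 of these values kept their side of the threshold, 19 lost a call, 13 gained one and 0 reversed. Other members were not in these counts, and some of them changed sign. *gsto-1* had an averaged curcumin difference of 0.34 in the main fit and of -0.35 with the embryo marker covariate.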

Other observations

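*gst-21*, the member with the lowest averaged curcumin difference, shared its highest arrays with *gst-35*. In DMSO-treated wild-type it had 5.06 in replicate 3, against 2.82 to 2.95 in the 4 other arrays. In DMSO-treated *ahr-1(ju145)* it had 3.89 in replicate 3, against 2.73 to 2.92 in the others, and in curcumin-treated wild-type 3.44, against 2.63 to 2.82. In curcumin-treated *ahr-1(ju145)* replicates 2 and 3 both had 3.19. The gene was singled out after its values were seen.

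Replicate 4 was the highest array of *gst-27* in each of the 4 groups, counting the array left out, and replicate 3 was the highest of *gst-4* in each. Replicate 5 was the lowest array of *gst-13* and of *gst-42* in each of the 4 groups.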
